A study of Mus musculus with 16 samples.

Results

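The miRNAs described here are 6 of the 1269 rows of a small RNA table from mouse airway cultures: mmu-miR-455-3p, mmu-miR-874-3p, mmu-miR-324-5p, mmu-miR-378a-3p, mmu-miR-378a-5p and mmu-miR-672-5p, written below without their species prefix. They were taken by name, as miRNAs outside the miR-34 family whose values were lower without p73 on some day, with no numerical threshold. The knockout against wild-type differences within a day therefore chose them, and those differences are given below as a description, without a test and in support of nothing. Both arms of the miR-378a hairpin are included, so the 6 rows come from 5 hairpins. A predicted row that repeats the values of miR-378a-3p was left out.

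The cells were primary mouse tracheal epithelial cells grown on membranes at an air-liquid interface, which lets part of the layer become multiciliated. They came from mice lacking p73 in every tissue (KO) or from wild-type mice (WT), and both were taken at days 0, 4, 7 and 14 of the interface. Each of the 8 groups holds 2 libraries, numbered replicate 2 and replicate 3, which makes 16 libraries. The labels call the replicates independent. They do not give strain, age or sex, or say whether animals were pooled. p73 was absent from these animals in all cell types and before culture as well as during it. The targeted gene gives no small RNA, so these libraries hold no check of the knockout.

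A miRNA is cut from a hairpin transcript into a 5p and a 3p arm, and the arm loaded into an Argonaute protein represses mRNAs that pair with its seed, the bases 2 to 8. Many miRNA hairpins lie inside other genes and can be transcribed together with them. p73, a relative of the tumour suppressor p53, binds DNA and is known to be needed for the formation of multiciliated cells. Among these miRNAs, miR-324-5p is known in human cells as a repressor of Hedgehog signalling, miR-378a is known in mice for its effects on mitochondrial metabolism, and miR-455-3p is known from cartilage.

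The mature sequences and the position of each hairpin identify what was counted. The seeds stand in capitals in the lines for miR-455-3p, miR-324-5p and miR-672-5p, for miR-324-3p, which is the other arm of the miR-324 hairpin, and for let-7b-5p, which is the row that followed miR-672-5p most closely. In the Mir874 hairpin the capitals mark the 22 bases at the deposited position of miR-874-3p. The sequences are those of RefSeq on GRCm38.p6, written 5′ to 3′.
miR-455-3p: gCAGUCCAcgggcauauacac
miR-324-5p: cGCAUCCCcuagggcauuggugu
miR-324-3p: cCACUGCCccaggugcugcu
miR-672-5p: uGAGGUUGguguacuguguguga
let-7b-5p: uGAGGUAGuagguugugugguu
Mir874 hairpin: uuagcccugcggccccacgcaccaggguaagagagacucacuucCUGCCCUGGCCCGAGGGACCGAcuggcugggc
Among 597 miRNAs of the table with a mature sequence, no other had the seed of miR-455-3p or of miR-324-5p. The seed of miR-672-5p was shared with miR-377-5p, and it was equal to the let-7b-5p seed at 6 of 7 bases. miR-378a-3p and miR-378a-5p are named only.

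All 6 rows lie inside a protein-coding gene and on its strand, as do 538 of the 677 miRNA rows (79.5%) with any gene of the same strand, so this position does not set them apart. On mm10, miR-455-3p (chr4:63256904-63256924, plus strand) lies in an intron of Col27a1, a fibrillar collagen gene of cartilage. miR-874-3p (chr13:58023135-58023156, minus strand) lies in an intron of Klhl3, whose protein brings substrates to a cullin ubiquitin ligase. miR-324-5p (chr11:70012060-70012082, plus strand) lies in an exon of Dvl2, a dishevelled adaptor of Wnt signalling, at a position annotated as UTR, and opposite an intron of Acadvl. Both arms of miR-378a (chr18:61397838-61397858 for the 3p arm and chr18:61397875-61397896 for the 5p arm, minus strand) lie in an intron of Ppargc1b, a coactivator of mitochondrial genes. miR-672-5p (chrX:104116228-104116250, minus strand) lies in an intron of Nexmif, a gene of neuronal development, 492 kb from the noncoding RNA gene Ftx. The levels of the host transcripts were not measured in these small RNA libraries.

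Recovered depth ran from 197497 reads in WT day 0 replicate 2 up to 1777273 in WT day 14 replicate 2. The pair of libraries in a group gave r of 0.940 to 0.983. This r was taken across the 293 rows with values in all 16 libraries and a mean of at least 10. Rows are not replicates of each other. The 6 miRNAs covered a wide range of depth. miR-378a-3p had 1323 to 9695 reads in a library and miR-672-5p 406 to 1828. The others were thin, with 25 to 232 reads for miR-874-3p, 13 to 118 for miR-324-5p, 3 to 126 for miR-455-3p and 2 to 75 for miR-378a-5p, so their values carry larger counting error. Values below are taken to be reads normalised by the authors within a day. Differences are KO minus WT of the mean log2 of the value plus 1. All 6 miRNAs passed the filter on low values, which asks for 10 or more in 2 or more libraries of a day, on each of the 4 days.

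**Figure D1:**
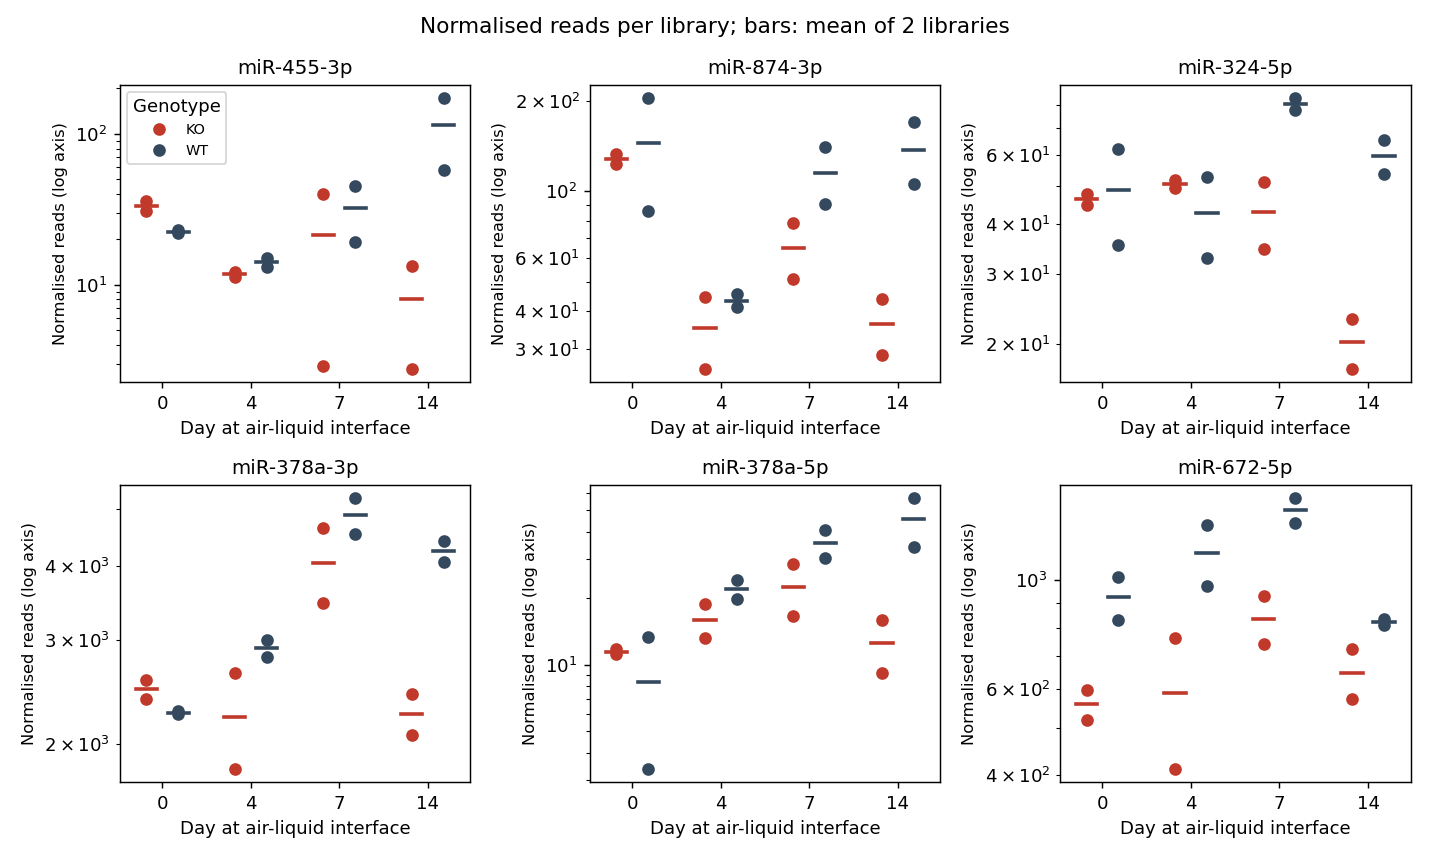
Normalised reads of each miRNA in each library (points, log axis) by day at the air-liquid interface, with KO left of WT and a bar at the mean of 2 libraries. At day 14 both KO points lie below both WT points in all 6 panels, and for miR-672-5p they do so on every day.

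miR-455-3p showed the largest day 14 difference of the 6. At day 0 its normalised reads were 30.7 and 36 in the KO libraries against 22.02 and 23.1 in the WT libraries, and at day 4 they were 11.3 and 12.2 in KO against 15.2 and 13.2 in WT. KO was thus above WT at day 0 and below it at day 4, with no overlap on either day. The day 4 values rest on 18 and 12 reads in KO and on 17 and 8 reads in WT. As 1 read in WT day 4 replicate 3 was worth 1.65, the lack of overlap at day 4 could turn on 1 read. No change of direction is read from it. At day 7 the values were 39.8 and 2.88 in KO against 19.3 and 45.0 in WT, so the KO libraries lay far apart and overlapped WT. At day 14 they were 13.3 and 2.77 in KO (10 and 3 reads) against 57.4 and 171.8 in WT (126 and 97 reads), again without overlap. The log2 difference was 0.54, -0.25, -1.28 and -3.77 at days 0, 4, 7 and 14. Leaving out 1 library moved it between -2.98 and 0.42 at day 7 and between -4.74 and -2.81 at day 14.

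miR-874-3p was similar in the genotypes at the start and lower in KO at the later days. It had 123.5 and 133 normalised reads in KO against 86.4 and 203.8 in WT at day 0, and 25.7 and 44.7 in KO against 45.5 and 41.2 in WT at day 4. These groups overlapped. It then had 78.5 and 51.2 in KO against 90.8 and 140.4 in WT at day 7, and 43.8 and 28.6 in KO against 105.6 and 170 in WT at day 14. Both KO libraries were below both WT libraries on these later days. The log2 difference was -0.05, -0.34, -0.82 and -1.89 in the order of the days. With any 1 library left out its sign was not fixed at day 0 (-0.66 to 0.56) or day 4 (-0.73 to 0.04), and it lay between -1.13 and -0.51 at day 7 and between -2.23 and -1.55 at day 14.

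miR-324-5p had the same pattern of overlap as miR-874-3p, with the genotypes mixed early and apart late. Its normalised reads were 44.9 and 47.7 in KO against 35.6 and 61.9 in WT at day 0, and 49.5 and 51.8 in KO against 52.7 and 32.9 in WT at day 4, with overlap on both days. At day 7 they were 51.2 and 34.6 in KO against 77.9 and 83.2 in WT, and at day 14 they were 17.3 and 23.1 in KO against 53.7 and 65.5 in WT, without overlap. The log2 difference was -0.02, 0.27, -0.92 and -1.52. With any 1 library left out it ran from -0.41 to 0.37 at day 0, from -0.06 to 0.61 at day 4, from -1.19 to -0.64 at day 7 and from -1.72 to -1.33 at day 14. At day 14 these values rest on 13 and 25 reads in KO and on 118 and 37 reads in WT.

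miR-378a-3p was the most abundant of the 6, at 0.351% to 0.733% of the values of a library. It had 2381 and 2564 normalised reads in KO against 2241 and 2274 in WT at day 0, and 2633 and 1813 in KO against 3001 and 2805 in WT at day 4. It had 4642 and 3469 in KO against 4544 and 5219 in WT at day 7, and 2425 and 2065 in KO against 4413 and 4068 in WT at day 14. KO was slightly above WT at day 0, below it without overlap at days 4 and 14, and overlapped it at day 7. The log2 difference was 0.13, -0.41, -0.28 and -0.92. Its day 0 value turned to -0.11 when values were scaled to library totals, which moved the median of all rows from 0.07 to -0.17. Leaving out 1 library moved the difference between -0.68 and -0.14 at day 4 and between -0.49 and -0.07 at day 7, and between -1.04 and -0.80 at day 14.

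miR-378a-5p is the minor arm of the same hairpin. Its normalised reads were 11.2 and 11.7 in KO against 3.39 and 13.3 in WT at day 0, and 18.8 and 13.2 in KO against 24.1 and 19.8 in WT at day 4. They were 28.5 and 16.6 in KO against 30.5 and 40.9 in WT at day 7, and 15.9 and 9.23 in KO against 34.1 and 56.7 in WT at day 14. The groups overlapped at day 0 only. The log2 difference was 0.65, -0.45, -0.68 and -1.77. The day 0 value rests on a WT library with 2 reads, and with 1 library left out it ran from -0.20 to 1.51. The corresponding ranges were -0.68 to -0.21 at day 4, -1.05 to -0.30 at day 7 and -2.14 to -1.41 at day 14, where both arms were lower in KO.

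miR-672-5p differed from the other 5 in its course. It had 596.9 and 518.8 normalised reads in KO against 831.6 and 1018 in WT at day 0, and 762.3 and 412.3 in KO against 973.8 and 1296 in WT at day 4. It had 926.7 and 741.4 in KO against 1312 and 1471 in WT at day 7, and 722.9 and 572 in KO against 832 and 809.3 in WT at day 14. KO was below WT without overlap on each of the 4 days, day 0 included. The log2 difference was -0.72, -1.0, -0.74 and -0.35, so the smallest was the one at day 14. With 1 library left out it stayed negative, at -1.44 to -0.56 at day 4 and -0.52 to -0.18 at day 14. The day 14 value became 0.02 with library totals, which moved the median of all rows from -0.01 to 0.34.

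Counted together, both KO libraries were below both WT libraries for 1 of the 6 miRNAs at day 0, where 16.1% of all 342 rows tested were. The count was 4 of 6 at day 4 and again at day 7, against 8.82% of 340 rows and 21.8% of 321 rows, and 6 of 6 at day 14, against 35.5% of 304 rows. Since this contrast chose the miRNAs, nothing is read from these counts. They were made on the authors' scaling only and depend on it. With library totals the median difference of all rows moved to 0.16 at day 4, 0.13 at day 7 and 0.34 at day 14. The median log2 difference of the 6 was 0.06, -0.38, -0.78 and -1.65 at days 0, 4, 7 and 14, where the median of all rows tested was 0.07, 0.01, -0.02 and -0.01. Ordered from the lowest difference at day 14, miR-455-3p stood at place 1 of 304 rows, miR-874-3p at 3, miR-378a-5p at 6, miR-324-5p at 10, miR-378a-3p at 28 and miR-672-5p at 92. The authors' deposited table gave log2 changes at day 14 of -3.27 for miR-455-3p, -1.78 for miR-874-3p, -1.56 for miR-378a-5p, -1.37 for miR-324-5p, -0.9 for miR-378a-3p and -0.34 for miR-672-5p. The authors' deposited table also gave -0.26 for miR-455-3p at day 7, against -1.28 here, and 0.26 for miR-378a-5p at day 0, against 0.65 here.

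**Figure D2:**
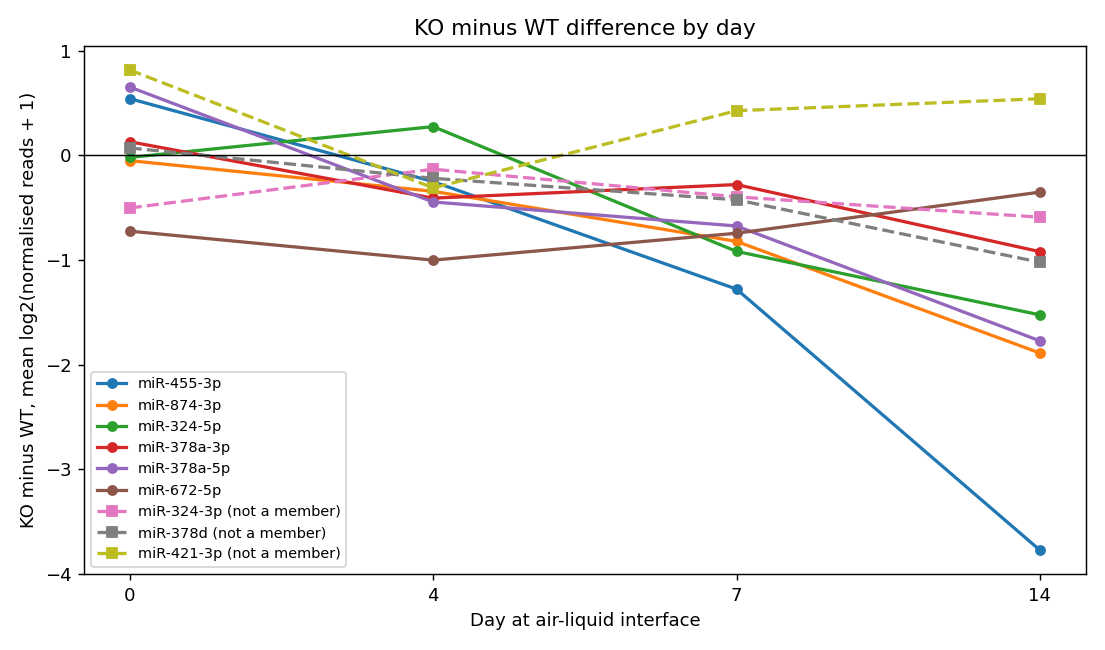
KO minus WT difference of the mean log2 of normalised reads plus 1 (vertical axis) by day at the air-liquid interface for the 6 miRNAs (solid lines) and 3 related miRNAs (dashed lines), from 2 libraries per genotype and day. The differences of 5 of the 6 lie between -0.05 and 0.65 at day 0 and between -3.77 and -0.92 at day 14, while miR-672-5p runs the other way from day 4.

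Markers of the cell types in the cultures differed between genotypes, some of them already at day 0, and their part in these values was not tested. The values of day 14 come first. The summed normalised reads of 5 multiciliated-cell miRNAs (miR-449a-5p, miR-449c-5p, miR-34c-5p and both arms of miR-34b) were 9897 to 10206 in KO libraries and 13559 to 15619 in WT libraries. In normalised reads, the widest gap was that of miR-34c-5p, at 1112 and 1227 in KO against 4000 and 3288 in WT. Both arms of miR-34b were also lower in KO without overlap. miR-34b-3p was at 120.9 and 86.7 in KO against 317.7 and 410.8 in WT. miR-34b-5p was at 7.97 and 12.9 in KO against 45.5 and 26.6 in WT. These miR-34 rows belong to the family set aside when the 6 miRNAs were listed. miR-449c-5p was at 4931 and 4848 in KO against 5968 and 6155 in WT, and miR-449a-5p, at 4034 and 3722 in KO against 5288 and 3678 in WT, overlapped. miR-375-3p, known from neuroendocrine and secretory cells, was at 4365 to 5584 in KO and 8132 to 8199 in WT. The stratified or basal list, with 2 of its 3 miRNAs measured at that day, summed to 973 to 1058 in KO and 414 to 644 in WT. Nearly all of that sum was miR-31-5p, at 1047 and 958.6 in KO against 618.5 and 402 in WT, while miR-203-3p overlapped, at 10.6 and 14.8 in KO against 25.9 and 12.4 in WT. The 6 epithelial miRNAs, which mark the labelled cell type, summed to 16834 to 19144 in KO and 20171 to 20797 in WT. Their members did not move together: miR-200a-3p, miR-200b-3p and miR-200c-3p were lower in KO without overlap, miR-205-5p was higher (9587 and 8481 in KO against 7767 and 7719 in WT), as was miR-429-3p (2130 and 2228 in KO against 1936 and 2121 in WT), and miR-141-3p overlapped. The lists for mesenchymal, blood, endothelial and muscle cells had no row with a value at day 14, and the last 3 summed to less than 10 in every library at day 0. At day 0 the stratified or basal sum was already higher in KO, at 1895 to 2232 against 1053 to 1463 in WT. It was also higher at day 7 (1636 to 2458 against 818 to 1293) and overlapped at day 4. miR-184-3p of that list, blank from day 7, was at 14.8 and 13.3 in KO against 3.39 and 3.64 in WT at day 0. miR-34c-5p and miR-34b-3p were lower in KO without overlap at days 4 and 7, and miR-375-3p at day 4. The multiciliated and epithelial sums overlapped before day 14. In bulk cultures such as these, fewer cells of a type and less RNA per cell cannot be told apart.

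The course over days was tested on the mean of KO and WT, which weighs both genotypes equally. The KO values of a later day enter both this mean and the difference that chose the miRNAs, so a change that lies in KO alone is a description. For this, the values of each day were moved to 1 scale by a single log2 shift. miR-874-3p was lower at day 4 than at day 0, with a log2 change of -1.82 (SE 0.31, limma adjusted p = 0.00124). Both genotypes showed it: the mean level on that scale was 40.0 in KO and 49.3 in WT at day 4, against 153.6 in KO and 173.8 in WT at day 0, with no overlap between the days in either genotype. The mean was also lower at day 7 (-1.26, SE 0.31, limma adjusted p = 0.0102) and day 14 (-1.25, SE 0.31, adjusted p = 0.00558), but there the genotypes were unlike. The change was -1.65 in KO and -0.88 in WT at day 7 and -2.17 in KO and -0.33 in WT at day 14, and the WT libraries overlapped those of day 0 on both days. The larger part of both changes lay in KO, whose late values also enter the difference that chose the miRNA. The calls at days 7 and 14 are therefore a description and no independent result. The call at day 7 was lost without KO day 7 replicate 3 (adjusted p = 0.0526) or without WT day 7 replicate 2 (adjusted p = 0.0544).

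miR-324-5p had a log2 change of -0.76 in the mean at day 14, which limma called. Within the genotypes the change was -1.51 in KO and -0.01 in WT, so it lay in the KO libraries of day 14, whose low values are those for which the miRNA was listed. It is therefore a description and no independent result. It was not called in edgeR, in DESeq2, with TMM factors or without any 1 of 5 of the 8 libraries (KO day 0 replicate 2 or 3, WT day 0 replicate 3, KO day 14 replicate 2 and WT day 14 replicate 2).

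These calls are from limma on all 16 libraries with the authors' scaling and no replicate block. In all, the number of the 6 called lower than at day 0 was 1 by day 4, 1 by day 7 and 2 by day 14, miR-324-5p among them. None was called higher in that fit. The calls at days 7 and 14 are a description, since those changes lay mostly in KO. Of all small RNAs tested, 8.65% were called at day 4 (27 of 312), 23.2% at day 7 (69 of 297) and 33% at day 14 (92 of 279). Those called lower made up 6.41%, 13.8% and 20.4%, and those called higher 2.24%, 9.43% and 12.5%, in the order of the days. With library totals the calls were 46, 136 and 135, of which 5, 7 and 11 were higher, against 7, 28 and 35 with the authors' scaling. The median change of the 6 was -0.04, -0.20 and -0.36, beside -0.13, -0.13 and -0.07 for all rows. With 6 rows these shares are near the background, and nothing particular to the 6 is read from their course over days.

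The other 4 did not pass on any day in the main limma fit, which used all 16 libraries, the authors' scaling with the day shifts and no replicate block. Some of them passed in other settings. miR-378a-5p had a log2 change of 0.98 at day 14 (95% interval 0.13 to 1.82, limma adjusted p = 0.0696), and 0.92 at both earlier days. With the replicate number as a block within genotype, limma called it higher at day 7 (adjusted p = 0.0451) and at day 14 (adjusted p = 0.0327). Differences between replicates correlated across days at r = 0.30 to 0.46 in KO (6 of 6 pairs over 0.1) and at 0.08 to 0.26 in WT (5 of 6 over 0.1). Between groups unlike in both genotype and day, 0 of 12 pairs were over 0.1. Libraries of 1 replicate number in a genotype were thus not independent across days, which the main fit did not take into account. miR-378a-3p had 0.04 at day 14 (95% interval -0.37 to 0.44), miR-672-5p -0.33 (95% interval -0.80 to 0.14) and miR-455-3p -0.40 (95% interval -1.71 to 0.92). With library totals in place of the authors' scaling, the change of miR-378a-3p at day 14 turned to -0.60 (limma adjusted p = 0.0156), while the median of all rows moved to -0.68.

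**Figure D3:**
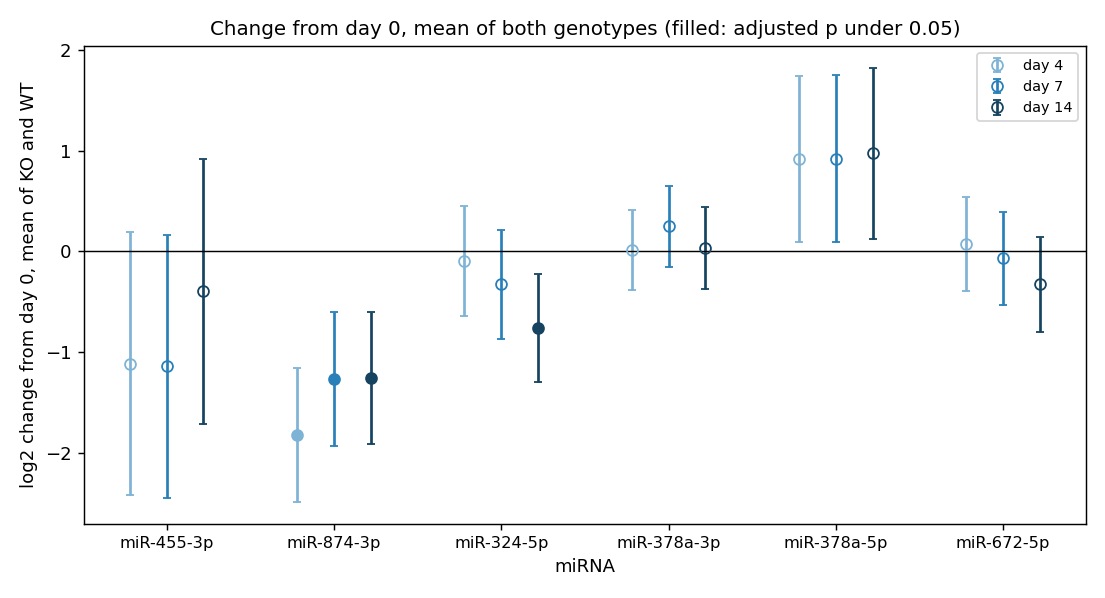
Log2 change of each miRNA from day 0 to days 4, 7 and 14, as the mean of KO and WT (points) with its 95% interval from limma (bars), and filled points where the adjusted p is under 0.05. miR-874-3p is filled on each day and miR-324-5p at day 14, where its change is -1.51 in KO and -0.01 in WT. The filled points of days 7 and 14 are a description, since those changes lie mostly in KO.

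Set out by genotype, as a description, the miRNAs took different routes to their day 14 values. From day 0 to day 14, miR-455-3p changed by -2.55 in KO and 1.76 in WT on the log2 scale, and miR-378a-3p by -0.49 in KO and 0.56 in WT. With library totals the WT change of miR-378a-3p became -0.38, against -1.09 for the median of all rows in WT. miR-378a-5p changed by -0.24 in KO and 2.19 in WT, with 1 WT day 0 library at 2 reads. miR-672-5p changed by -0.14 in KO, with overlap, and by -0.51 in WT, without overlap.

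The order of the 8 groups on the common scale differed by miRNA. For miR-455-3p the WT day 14 mean of 107.8 was highest, followed by KO day 0 at 40.0 and WT day 0 at 27.0, and KO day 14 was lowest at 7.56. Those 4 groups did not overlap their neighbours in the order, save that WT day 0 overlapped WT day 7. WT day 7 at 24.5, KO day 7 at 16.3 and WT day 4 at 16.1 overlapped, and KO day 4 followed at 13.3. Beyond neighbours, the KO day 7 libraries, at 2.19 and 30.3, spanned the values of KO day 14, KO day 4 and WT day 0. KO day 14 was therefore not separate from KO day 7. For miR-378a-3p the order ran from WT day 14 at 3992 and WT day 7 at 3716, which overlapped, down to KO day 14 at 2113, which overlapped KO day 4 at 2526. For miR-672-5p the 4 WT groups, from WT day 4 at 1290 to WT day 14 at 772.5, had the 4 highest means. Below them came the 4 KO groups, at 668.2, 667.5, 634.9 and 609.5 for days 0, 4, 7 and 14, each overlapping the next. KO day 14 was the lowest group for miR-874-3p (34.1), where it overlapped KO day 4, and for miR-324-5p (18.98), where it stood apart from KO day 7 at 32.7. For miR-378a-5p the lowest was WT day 0 (10.03), which overlapped KO day 14 at 11.9.

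The other arm of each hairpin and the relatives by name or locus were not themselves chosen by the rule. Their difference between genotypes was tested. They are tied to the chosen miRNAs by hairpin, name or locus, so a difference here is not independent of that choice. Of 15 such names looked for, 8 were in the table, and 3 passed the filter on low values: miR-324-3p, miR-378d and miR-421-3p, which lies in an intron of Ftx, also on the X chromosome. miR-455-5p, miR-672-3p and miR-378c were at or near 0, while miR-874-5p and miR-374b-5p were below the filter at days 0 and 4 and blank later. None of the 3 was called by limma on any day, where the share of all rows called was 0%, 0.294%, 0.623% and 3.95% from day 0 to day 14. At an unadjusted p under 0.05 the count was 0 at days 0, 4 and 7 and 1 at day 14. edgeR and DESeq2 each called 0 of the 3 at days 0, 4 and 7.

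miR-378d, from a separate locus on chromosome 10 with no host gene, had 162.1 and 104.2 normalised reads in KO against 240.3 and 292.2 in WT at day 14. Both KO libraries were below both WT libraries. Its log2 difference was 0.07, -0.22 and -0.42 at days 0, 4 and 7 and -1.02 at day 14 (95% interval -1.68 to -0.36, limma adjusted p = 0.0928). It passed at day 14 in edgeR on the recovered reads (adjusted p = 0.0219), in DESeq2 (adjusted p = 0.0362) and in limma on the 4 libraries of that day alone (adjusted p = 0.0327). Reads of miR-378d may be shared with miR-378a-3p where the counting could not tell the sequences apart. It stood at 4.80% to 7.18% of the miR-378a-3p value in every library. The calls of miR-378d at day 14 are therefore a description and no independent result.

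miR-324-3p, from the hairpin of miR-324-5p, had 51.8 and 44.3 normalised reads in KO against 71 and 74.4 in WT at day 14. These groups did not overlap, but the log2 difference of -0.59 did not pass (95% interval -1.26 to 0.08, limma adjusted p = 0.305). miR-421-3p had 21.3 and 24.0 in KO against 11.8 and 19.5 in WT at day 14, a log2 difference of 0.54 (95% interval -0.73 to 1.81, limma adjusted p = 0.625).

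For miR-324 the balance of the arms was mixed between the genotypes on the early days and apart on the late days. The 5p arm was at 96.2% and 77.2% of the 3p arm in KO against 45.7% and 82.3% in WT at day 0, and at 100% and 73.9% in KO against 74.7% and 55.6% in WT at day 4. It was at 55.6% and 60.0% in KO against 85.8% and 81.3% in WT at day 7, and at 33.3% and 52.1% in KO against 75.6% and 88.1% in WT at day 14. KO and WT overlapped at days 0 and 4, and both KO libraries were below both WT libraries at days 7 and 14. As the 5p arm was chosen for its difference, no test was made of this ratio. The 5p arm of miR-378a stayed between 0.151% and 1.39% of its 3p arm, at 0.658% and 0.447% in KO against 0.774% and 1.39% in WT at day 14.

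**Figure D4:**
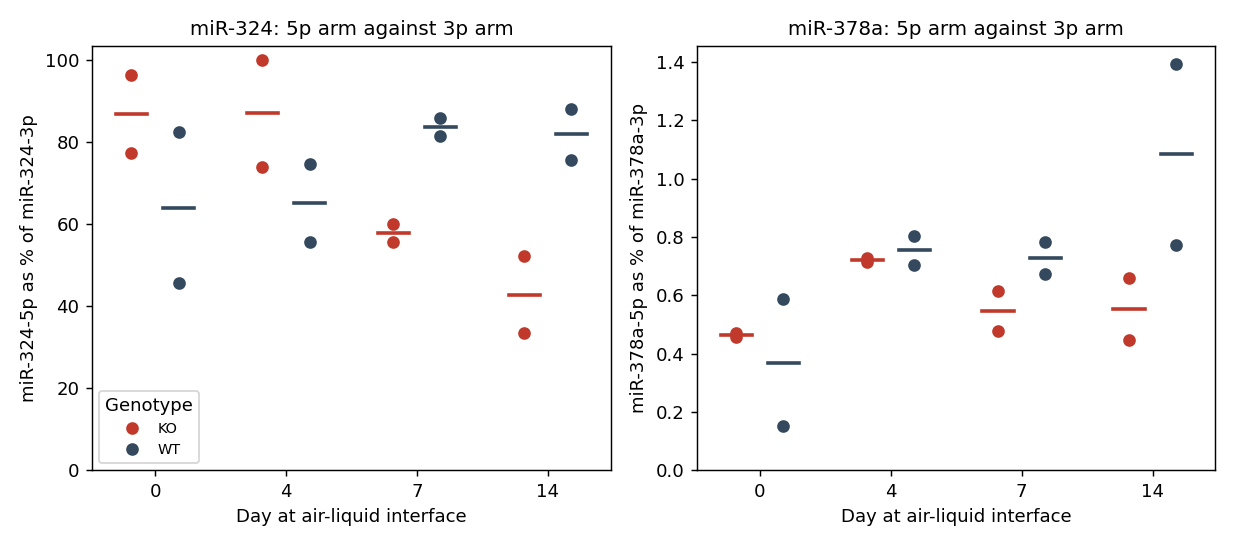
The 5p arm as a percentage of the 3p arm in each library (points, KO left of WT, bars at the mean of 2 libraries) by day, for miR-324 and miR-378a. For miR-324 both KO points lie below both WT points at days 7 and 14, and for miR-378a all values are at most 1.39%.

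Likeness of pattern was measured as Pearson's r of the log2 level over the libraries in which both rows had a value. These libraries share the same groups and day shifts, so r describes them and no p is given. Between the 6 miRNAs, r over 16 libraries was highest for miR-874-3p with miR-455-3p (0.77) and for the 2 arms of miR-378a (0.72), and lowest for miR-874-3p with miR-378a-5p (0.15). miR-672-5p had r = 0.25 to 0.52 with the other 5.

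Among all other rows, the closest to miR-378a-3p was miR-378d (r = 0.90), followed by miR-34c-3p (0.74) and miR-151-5p (0.72), all over 16 libraries. The closest to miR-672-5p were let-7b-5p (0.89), miR-224-5p (0.78) and let-7c-5p (0.74), also over 16. miR-324-5p was closest to miR-331-3p (0.84) and miR-3102-3p (0.81) over 16 libraries and to miR-5100 (0.76) over 8. miR-378a-5p was closest to the small nucleolar RNA Snord66 (0.86) over 16 libraries, and to miR-30b-3p (0.84) and Snord67 (0.78) over 12. For miR-874-3p the closest were miR-877-3p (0.89) and miR-345-3p (0.88), each over 8 libraries, and miR-151-3p (0.82) over 16. For miR-455-3p they were miR-1983 and Gm26316 (0.88 each) and miR-345-3p (0.86), each over 8 libraries, that is over the days on which the partner had values. An r over 8 or 12 libraries leaves out days that an r over 16 includes, so their values cannot be ranked together.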

How the data were processed

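Small RNA was sequenced from 16 libraries. Per the labels' protocols, column-purified total RNA went into a TruSeq RNA library kit. Per the submitters' processing notes, the build was mm10 and DESeq2 was used. How reads were aligned and counted is not given in the sources used here. Values deposited by the authors are headed as read counts but are not whole numbers. They are taken here as a normalised signal, that is reads divided by a factor for each library that the authors computed within a day. This reading is inferred from the values. Read counts were recovered from those deposited values by finding the value of a single read in each library, with 98.7% to 100% of values whole (tolerance 0.0055); this is less certain at days 7 and 14, where low rows are blank. The authors' deposited comparison table gave log2 changes and, per the file headers, p-values that were not used.

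Days were put on 1 scale by log2 shifts of 0.26, 0.18, -0.39 and -0.09 (days 0, 4, 7 and 14), from 293 rows. limma 3.58.1 in R 4.3.3 was fitted with a variance trend to the log2 of the value plus 1 over all 16 libraries in 8 groups, for rows that reached 10 in 2 or more libraries on each day compared. Adjusted p are Benjamini-Hochberg values over all rows tested, with a threshold of 0.05. 5 predicted copies were left out. The fit was tested on simulated data. Alternatives were a pseudocount of 5, no filter, edgeR 4.0.16 and DESeq2 1.42.0 on recovered reads, TMM factors, library totals, replicate blocks, the 4 libraries of a day alone, and each library left out.

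Named rows were the members, opposite arms, relatives by name or locus and, for each member, the 3 rows with the highest r (mean level at least 10, at least 8 libraries). The members and lists were chosen with earlier results of these data known. Positions are from the deposited table, with genes from GENCODE vM21. p-values measure the spread between these libraries.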

Additional observations from a re-analysis of the deposited data

Results flagged for a closer look

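From day 0 to day 14, miR-455-3p had changes of opposite sign in the genotypes. Its log2 change was -2.55 in KO, where both day 14 libraries were below both day 0 libraries, and 1.76 in WT, where both were above. miR-378a-3p did the same, at -0.49 in KO and 0.56 in WT. With library totals the WT changes were 0.84 for miR-455-3p, with overlap, and -0.38 for miR-378a-3p, each above the median of all rows in WT, which was -1.09. The difference between genotypes was not tested, because these miRNAs were chosen on it.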

How the results depend on the processing

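The number of the 6 miRNAs called against day 0, with 1, 1 and 2 at days 4, 7 and 14, ranged from 1 to 2, 0 to 2 and 1 to 2 with 1 library left out. It was 2 at day 7 with a replicate block within genotype, which added miR-378a-5p (adjusted p = 0.0451), and 3 at day 14 (miR-378a-5p at adjusted p = 0.0327). It was 4 at days 7 and 14 with library totals, and 1 at day 14 in edgeR, in DESeq2 and with TMM factors. Without WT day 0 replicate 3, miR-378a-5p passed on each day (adjusted p = 0.0259, 0.015 and 0.00875), and without KO day 7 replicate 2, miR-455-3p passed at day 7 (-1.96, adjusted p = 0.0166). The related miRNA count at day 14 was 1 in edgeR, in DESeq2 and with the 4 libraries of the day alone. These calls are a description, since the related miRNAs are tied to the chosen ones. Library totals reversed miR-378a-3p at day 14 against day 0 (-0.60), its KO minus WT value at day 0 (-0.11) and that of miR-672-5p at day 14 (0.02). The median of all rows moved the same way, to -0.68, -0.17 and 0.34 in that order. Of 270 recomputed values of the 6 miRNAs against day 0, 245 kept their side of the threshold, with the same direction or a shift smaller than the SE. The cause of the changes was not tested.

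Over all rows, the calls at day 4 (27) became 11 in edgeR, 41 with the block and 46 with library totals, and those at day 7 (69) became 136 with library totals. Without KO day 0 replicate 3 they were 16 and 33, and the day 7 count was 34, 38 or 39 without KO day 7 replicate 3, WT day 7 replicate 2 or WT day 7 replicate 3. Of the calls between genotypes at day 14 (12), edgeR had 54, DESeq2 40, the 4 libraries alone 45 and the replicate block within the day had 4, with 0 to 7 when 1 library of that day was left out. At day 0, where 0 were called, 9 passed without WT day 0 replicate 2. Between genotypes of a day, differences between replicates correlated at r = -0.27 to 0.11, so the replicate numbers were not taken to pair KO with WT. With 2 libraries a group and at most 126 reads for miR-455-3p, miR-324-5p and miR-378a-5p, small differences were not detectable.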
